A study of Mus musculus with 45 samples.

Results

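The Shank family (Shank1, Shank2 and Shank3) and the Homer family (Homer1, Homer2 and Homer3) were followed in the prefrontal cortex (termed cortex), hippocampus and striatum of Shank3-mutant mice, to ask whether any paralog or partner changes where Shank3 is lowered. The 6 genes were chosen by name from 18135 genes in the data and not by a rule on their values. Earlier results of these data were known at that choice. All 6 passed the filter on low values in each region. Measured were bulk mRNA levels as normalized counts per gene, in 45 samples that form 9 groups of 5. The samples came from male C57BL/6J mice, 13 weeks old per the labels, that were wild-type (WT), heterozygous (Shank3-HT) or homozygous (Shank3-HM) for a deletion of Shank3 exons 14–16. The homozygous mice are named knock-out in the labels and KI in the column heads of the data, and both were taken as Shank3-HM. The study's methods give no cell type or promoter that restricts the deletion.

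Shank proteins are large scaffolds of the excitatory postsynaptic density. Their PDZ domain binds SAPAP proteins, which tether them to PSD-95 and glutamate receptors, and a proline-rich stretch binds Homer. Homer proteins in turn bind metabotropic glutamate receptors, inositol trisphosphate receptors and ryanodine receptors, and Homer1 also makes a short, activity-induced form that cannot crosslink its partners.

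In GRCm38, Shank3 (ENSMUSG00000022623) lies at chr15:89499623-89560261 on the plus strand. Shank1 (ENSMUSG00000038738, chr7:44310253-44360572) and Shank2 (ENSMUSG00000037541, chr7:144001928-144424494) are also on the plus strand. Homer1 (ENSMUSG00000007617) lies at chr13:93299635-93405129 on the plus strand, Homer2 (ENSMUSG00000025813) at chr7:81600481-81707527 on the minus strand and Homer3 (ENSMUSG00000003573) at chr8:70282827-70294361 on the plus strand. Shank1 overlaps the protein-coding gene 1700008O03Rik and Homer3 overlaps Ddx49, each on the opposite strand. The kit was stranded, but whether strand was used in quantification is not given in the sources used here, so reads of these pairs may be shared.

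Counted in the longest annotated Shank3 transcript (22 exons, 7365 nt), exons 14 to 16 are coding exons of 83, 125 and 133 nt that span chr15:89531626-89532461. Together they hold 341 nt, which leaves a remainder of 2 after division by 3. Of 9 annotated Shank3 transcripts, 7 contain all 3 exons and 2 contain none. The gene-level value sums the transcripts of a gene, so transcript that lacks only these exons still counts as Shank3, and the values below do not measure the deleted exons themselves. The transcript that the exon numbers of the deletion refer to is not given in the sources used here, so the positions above are those of the deletion only if it was numbered in the same way. Exons 14 and 15 in this numbering are shown as transcript sequence with the closest stretches of Shank1 and Shank2, to let the region named in the deletion be compared with its paralogs. Capitals mark exon 15 in the Shank3 line, and bases identical to Shank3 in the other lines.
Shank3: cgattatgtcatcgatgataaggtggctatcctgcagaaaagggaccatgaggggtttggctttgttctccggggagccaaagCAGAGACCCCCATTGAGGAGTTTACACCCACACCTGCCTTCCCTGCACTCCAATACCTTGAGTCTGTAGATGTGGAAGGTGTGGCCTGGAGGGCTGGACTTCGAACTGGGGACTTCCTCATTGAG
Shank1: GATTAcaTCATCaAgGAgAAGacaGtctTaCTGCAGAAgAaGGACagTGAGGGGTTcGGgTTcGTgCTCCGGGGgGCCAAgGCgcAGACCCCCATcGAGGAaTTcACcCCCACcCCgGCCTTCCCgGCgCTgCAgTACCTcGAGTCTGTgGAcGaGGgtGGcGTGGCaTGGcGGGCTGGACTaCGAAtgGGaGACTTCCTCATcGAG
Shank2: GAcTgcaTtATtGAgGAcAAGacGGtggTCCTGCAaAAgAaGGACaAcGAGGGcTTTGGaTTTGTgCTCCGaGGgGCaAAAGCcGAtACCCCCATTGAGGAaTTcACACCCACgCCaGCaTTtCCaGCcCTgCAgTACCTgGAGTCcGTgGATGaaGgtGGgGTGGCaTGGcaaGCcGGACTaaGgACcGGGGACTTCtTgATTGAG
The Shank1 stretch shared 76.8% of 207 aligned bases with Shank3, and the Shank2 stretch 73.4% of 207.

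Before the genotypes were compared, the regional labels were checked by marker genes. The summed level of 10 striatal spiny projection neuron markers (such as Drd1, Drd2 and Ppp1r1b) was 222367 to 300514 normalized counts in the 15 striatal samples, 7782 to 9070 in the hippocampus, and 9408 to 11757 in 14 cortical samples. The other cortical sample, Shank3-HM replicate 2, held 63793, and its sum of 8 cortical excitatory neuron markers was 34437 against 54842 to 65424 in the other cortical samples. Among the striatal samples, WT replicate 5 had the highest cortical marker sum (13624) and the lowest spiny neuron sum (222367), whereas Shank3-HM replicate 1 had a cortical marker sum of 13037, Shank3-HT replicate 3 of 11777 and the other 12 between 4637 and 9238. Choroid plexus markers (5 genes) summed to 67947 in striatal Shank3-HT replicate 5, against 451 to 1548 in the other 14 striatal samples, and varied from 1258 to 122200 in the hippocampus. No marker of these lists was at 0 in all samples of a group. The means, sums and correlations below include the cortical Shank3-HM replicate 2 and the striatal WT replicate 5, and values without them are given beside the results that they move most.

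In WT mice, the 6 genes differed strongly between regions. Shank1 had 25393 ± 2960 normalized counts in cortical, 15748 ± 2127 in hippocampal and 3930 ± 1079 in striatal samples (SD, n = 5 for all values here). Shank2 was ordered in the same way, with 9212 ± 1101, 6554 ± 679 and 3973 ± 456. Shank3 went the other way, with 8005 ± 725 in the cortex, a close 7944 ± 359 in the hippocampus and a higher 12317 ± 606 in the striatum. Shank3 was thus highest in the region where both paralogs were lowest.

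Of the Homer genes, Homer1 was highest in the striatum (8581 ± 506 normalized counts), lower in the cortex (6649 ± 1293) and lowest in the hippocampus (2967 ± 419). Homer2 had 3069 ± 192 in cortical, 2770 ± 524 in hippocampal and only 650 ± 183 in striatal samples. Homer3 was largely a hippocampal transcript, at 1354 ± 134, against 183 ± 9.72 in the striatum and 146 ± 26.2 in the cortex. The plot of values by sample shows these regional steps beside the genotypes.

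**Figure D1:**
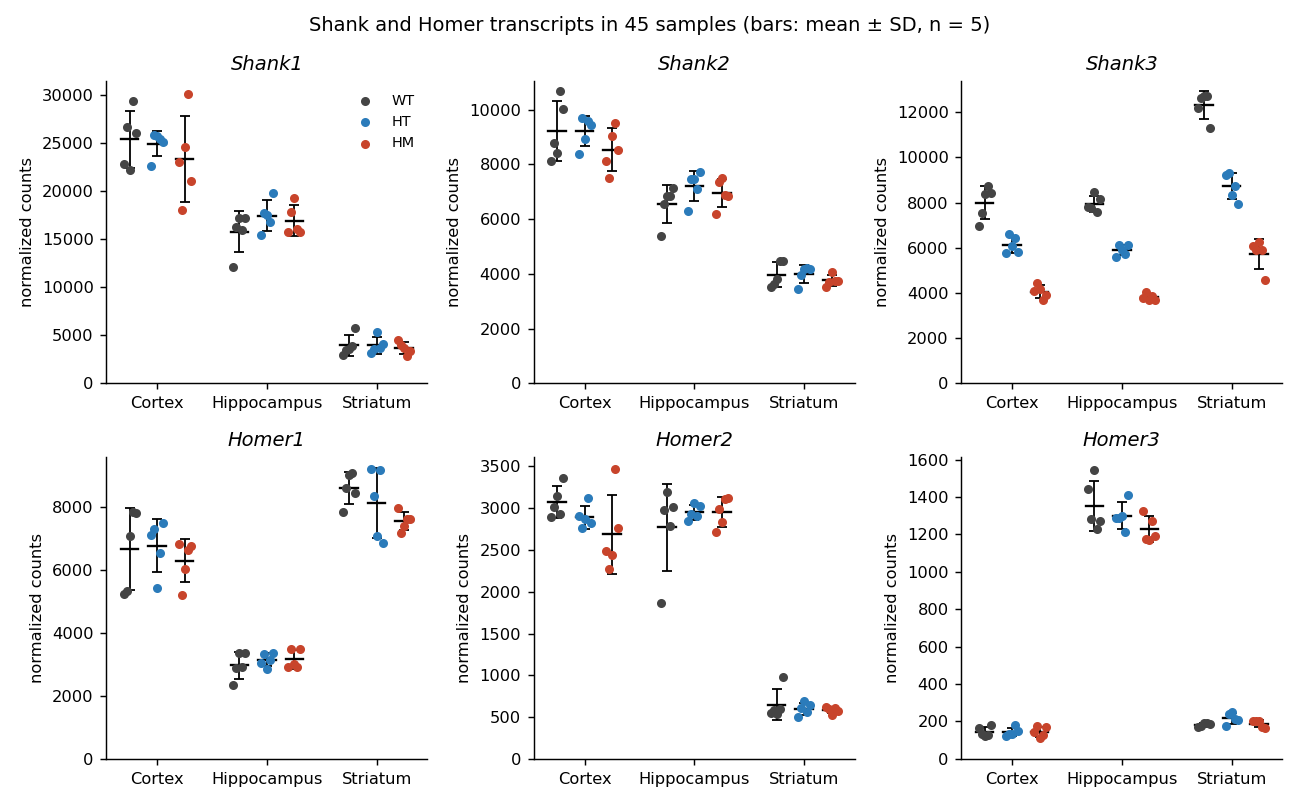
Normalized counts (y axis, linear, from 0) of the 3 Shank and 3 Homer genes in 45 samples, grouped by region on the x axis and coloured by genotype, with bars for mean ± SD of 5 samples. Shank3 steps down from WT to HT to HM in each region, whereas the other 5 genes differ mainly between regions.

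In limma, all 6 genes passed the threshold (adjusted p of 0.05) between cortex and striatum and between hippocampus and striatum, where 59.3% and 56.1% of all genes passed. Shank1 was 2.72 ± 0.14 higher in the cortex than in the striatum on the log2 scale (SE, adjusted p = 1.04e-20), a 6.60-fold difference, and Homer3 was 2.88 ± 0.11 higher in the hippocampus than in the striatum (adjusted p = 6.99e-25), a 7.35-fold difference. Without WT replicate 5 of the striatum, the cortex minus striatum difference was 2.87 for Shank1, and 2.43 in place of 2.27 for Homer2. Shank3 was lower in the cortex than in the striatum by 35.2% (log2 difference −0.63, adjusted p = 2.27e-11) and lower in the hippocampus than in the striatum by 35.5% (−0.63, adjusted p = 1.71e-11). In bulk tissue, fewer cells that express a gene and less RNA per cell cannot be told apart. Between cortex and hippocampus 4 of 6 passed, against 46.6% of all genes. The neighbours that did not differ beyond their spread were Shank3 (log2 difference 0.01, 95% interval −0.12 to 0.14, adjusted p = 0.936) and Homer2 (0.17, −0.07 to 0.41, adjusted p = 0.240). Without WT replicate 1 of the hippocampus, the Homer2 difference was 0.03.

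Shank3, the targeted gene, was first examined in each sample. In the cortex, the WT samples had 6985, 7519, 8365, 8717 and 8437 normalized counts, the Shank3-HT samples 5748, 6607, 6090, 6422 and 5822, and the Shank3-HM samples 4066, 4446, 4171, 3689 and 3897. The Shank3-HT samples lay below all WT samples and above all Shank3-HM samples, so the 3 genotypes did not overlap. In the hippocampus, the values were 7799, 7748, 8468, 7566 and 8139 in WT, 5611, 6103, 5894, 5713 and 6108 in Shank3-HT and 3755, 4020, 3678, 3866 and 3684 in Shank3-HM mice. Here also no groups overlapped, and the spread within a genotype was 3.79% to 4.52% of the mean (coefficient of variation). In the striatum, WT mice had 12189, 12644, 12705, 12740 and 11309, Shank3-HT mice 9243, 9323, 8355, 8746 and 7959, and Shank3-HM mice 6061, 5883, 6242, 5922 and 4569. The groups were again apart, with 1 low Shank3-HM sample (replicate 5). The Shank3 values of the 45 samples thus went with their genotype labels.

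Shank3 was downregulated in Shank3-HM mice in all 3 regions. The change was −49.3% in the cortex (95% interval −54.0% to −44.1%, log2 fold change −0.98, adjusted p = 4.76e-07), −52.1% in the hippocampus (−55.1% to −49.0%, log2 fold change −1.06, adjusted p = 1.19e-10) and −53.7% in the striatum (−58.4% to −48.4%, log2 fold change −1.11, adjusted p = 3.70e-07). In these contrasts 0.0121%, 0.00603% and 0.182% of all genes passed. It was the only one of the 6 genes that passed in these contrasts. The Shank3-HM effect on Shank3 was not shown to differ between regions. The largest such difference, striatum minus cortex, was −0.13 on the log2 scale with a 95% interval of −0.31 to 0.05 (adjusted p = 0.966). Leaving out 1 sample in turn gave −0.16 to −0.05. The value of −0.05 was that without striatal Shank3-HM replicate 5, and hippocampus minus cortex (−0.08) was then larger in size. Of all genes, 0.0539% passed in that contrast, 0.0718% in striatum minus hippocampus and 0% in hippocampus minus cortex (743 at an unadjusted p under 0.05).

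In Shank3-HT mice, Shank3 was downregulated in the hippocampus (−0.43, 95% interval −0.52 to −0.34, adjusted p = 0.000219) and at the threshold in the striatum (−0.50, −0.65 to −0.34, adjusted p = 0.0494), where 0.00603% and 0.00607% of all genes passed, which is Shank3 alone. In the striatum the call was kept only without WT replicate 5 (adjusted p = 0.0495) and lost in the other 9 of 10 fits that left out 1 sample (adjusted p up to 0.257), with log2 fold changes between −0.53 and −0.47. Shank3-HT replicate 5, the lowest of its group and the sample with choroid plexus markers, gave −0.47 (adjusted p = 0.233) when left out. In the cortex Shank3 lay 23.2% below WT (−0.38, −0.52 to −0.24) and did not pass over all genes tested (adjusted p = 0.288). No gene passed there (0% of 16507 by limma, 443 of them at an unadjusted p under 0.05), Shank3 had the smallest p of all of them, and the 5 Shank3-HT samples were all below the 5 WT samples. Groups without overlap, in either direction, were seen for 0.630% of genes in that contrast. A two-sided exact permutation test of Shank3 alone gave p = 0.00794 for each of the 9 genotype contrasts, the smallest that 5 against 5 samples can give. Averaged over the 3 regions, Shank3 was lower by 26.1% in Shank3-HT mice (−0.44, −0.51 to −0.36, adjusted p = 1.16e-10) and by 51.7% in Shank3-HM mice (−1.05, −1.13 to −0.98, adjusted p = 1.48e-24).

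The step from Shank3-HT to Shank3-HM mice was also called in each region. Shank3 was lower in Shank3-HM than in Shank3-HT samples by 0.60 to 0.63 on the log2 scale, with adjusted p values of 0.000934 (cortex), 6.31e-07 (hippocampus) and 0.00161 (striatum), where 0.00606%, 0.00603% and 0.140% of genes passed. The 2 mutants did not overlap in Shank3, as for 0.727%, 0.447% and 1.27% of genes in the same regions.

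The Shank3-HT level was set beside the midpoint of WT and Shank3-HM mice. Shank3-HT mice kept 76.7% ± 3.74 (SE) of the WT mean in cortical, 74.1% ± 1.96 in hippocampal and 70.8% ± 2.62 in striatal samples, and Shank3-HM mice 50.6%, 47.8% and 46.6% (SE of 2.63 or less). The Shank3-HT mean minus the midpoint was 108 ± 273 normalized counts for the cortex, 13.5 ± 141 for the hippocampus and −301 ± 339 for the striatum (SE), each smaller than its own error on the linear scale. Leaving out 1 sample in turn gave −19.2 to 206 for the cortex, −42.1 to 82.2 for the hippocampus and −451 to −110 for the striatum. Against the geometric midpoint, on the log2 scale, the Shank3-HT level was higher by 0.11 ± 0.060 in cortical, 0.099 ± 0.032 in hippocampal and 0.056 ± 0.069 in striatal samples (SE), so the sign in the striatum, and whether the cortical and hippocampal differences exceed their errors, depended on the scale. Of the loss in Shank3-HM mice, 47.3%, 49.7% and 54.6% was already seen in Shank3-HT mice. Between 46.6% and 50.6% of the gene-level signal thus remained in mice homozygous for the deletion.

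**Figure D2:**
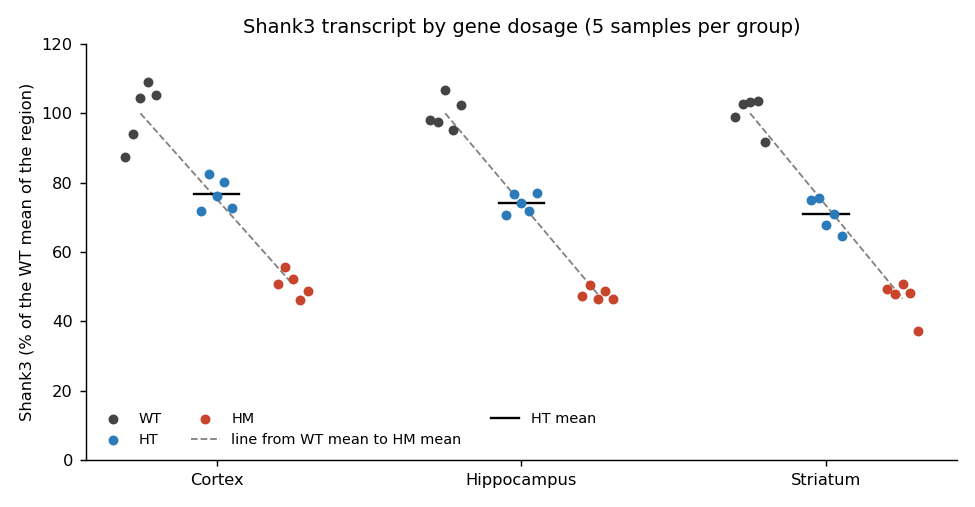
Shank3 in each sample as a percentage of the WT mean of its region (y axis, linear, from 0), by genotype and region, with the Shank3-HT mean as a black bar and a dashed line from the WT mean to the Shank3-HM mean. The Shank3-HT means, at 76.7%, 74.1% and 70.8%, sit near the dashed line, and the Shank3-HM means lie at 50.6%, 47.8% and 46.6%.

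The paralogs of Shank3 did not pass in any genotype contrast. Shank1, the most abundant Shank per kb of transcript in cortex and hippocampus, had 22803, 26660, 22140, 29365 and 26000 normalized counts in WT cortex and 23034, 18005, 24531, 30076 and 21056 in Shank3-HM cortex. The ranges overlapped widely, and the lowest Shank3-HM value belonged to replicate 2, the sample with striatal markers. The log2 fold change was −0.13 (95% interval −0.36 to 0.09, adjusted p = 0.893), −0.05 without that sample and −0.23 without Shank3-HM replicate 4, the highest value (adjusted p = 0.672). In the hippocampus Shank1 was 12087, 16228, 17238, 15957 and 17233 in WT and 15735, 17790, 19276, 16063 and 15765 in Shank3-HM mice (log2 fold change 0.11, −0.08 to 0.30, adjusted p = 0.920). All 5 Shank3-HM samples were within or above the WT range, in which replicate 1 was low. Without WT replicate 1 the log2 fold change was 0.02. Shank3-HT hippocampus held 15386, 17727, 17452, 16775 and 19835 (log2 fold change 0.15, −0.04 to 0.35, adjusted p = 0.926, and 0.06 without WT replicate 1). All but replicates 1 and 4 lay above the WT range. WT replicate 1 had the lowest sum of 8 hippocampal excitatory neuron markers (20693 normalized counts, against 22041 to 31560 in the other hippocampal samples) and the highest sum of the cortical ones (47686, against 37573 to 45806). The part of these markers in its values was not tested.

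In the striatum Shank1 was 2936, 3488, 3583, 3882 and 5761 in WT, 3102, 3563, 5303, 3628 and 4048 in Shank3-HT and 4452, 4021, 3654, 2881 and 3394 in Shank3-HM mice. The 3 ranges overlapped, and the highest value was that of WT replicate 5. The log2 fold change in Shank3-HM mice was −0.07 (−0.41 to 0.27, adjusted p = 0.963) and turned to 0.08 without WT replicate 5. The highest Shank1 values in the striatum were those of WT replicate 5, Shank3-HT replicate 3 and Shank3-HM replicate 1, which are also the 3 samples with the highest cortical marker sums. Homer2 followed them in part: WT replicate 5 had 974 normalized counts, Shank3-HT replicate 3 had 690 and Shank3-HM replicate 1 had 619, against 506 to 642 in the other 12 samples. The part of the cortical markers in these values was not tested.

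**Figure D3:**
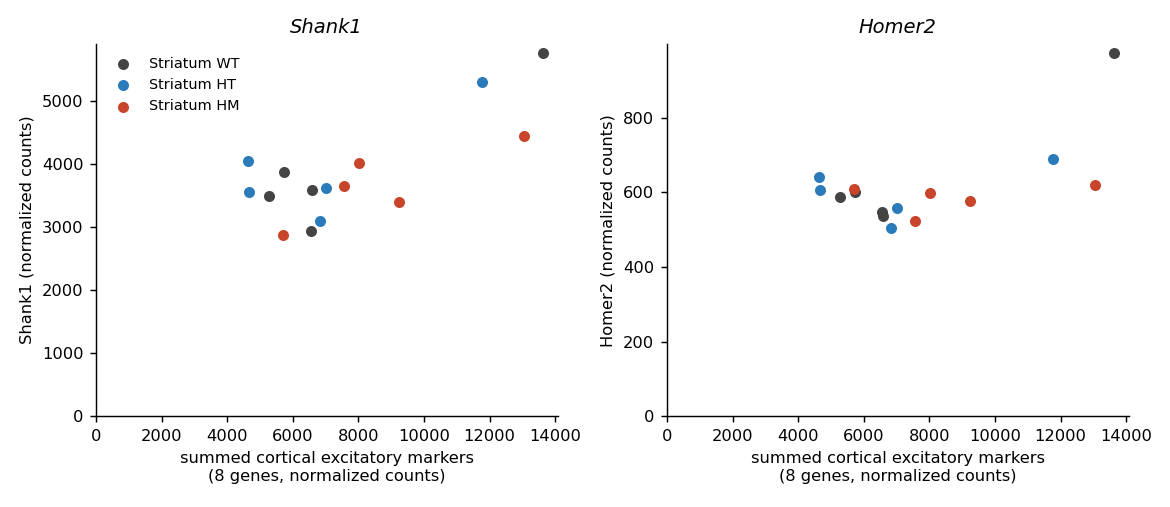
Shank1 (left) and Homer2 (right) in normalized counts (y axes) against the summed level of 8 cortical excitatory neuron markers (x axis) in the 15 striatal samples, coloured by genotype. The 3 samples with marker sums of 11777 to 13624 hold the 3 highest Shank1 values, and the WT sample with the highest sum holds the highest Homer2 value, 974.

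Shank2, whose regional range was narrower than that of Shank1, had 8125 to 10689 normalized counts in WT cortex, 8397 to 9700 in Shank3-HT and 7518 to 9513 in Shank3-HM cortex. Its hippocampal values ran from 5399 to 7142, 6294 to 7713 and 6198 to 7515, and its striatal values from 3530 to 4468, 3460 to 4213 and 3533 to 4081, in the same order of genotypes. These ranges overlapped in each region. The log2 fold changes in Shank3-HM mice were −0.11 (cortex), 0.09 (hippocampus) and −0.07 (striatum), and those in Shank3-HT mice were 0.01, 0.14 and 0.01 (adjusted p of at least 0.892 in each contrast). Leaving out 1 sample in turn moved the Shank3-HM estimates both ways, to between −0.15 and −0.05 (cortex), 0.02 and 0.13 (hippocampus) and −0.11 and −0.03 (striatum), and the Shank3-HT estimate of the hippocampus to between 0.07 and 0.19. In the hippocampus the lowest value of both contrasts with WT was the one without WT replicate 1.

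The Homer genes did not pass either, though 3 of their 18 contrasts with WT had intervals that left out 0 (an unadjusted p under 0.05). Of all genes, 5.49% had such a p in Shank3-HM cortex and 7.43% in both Shank3-HT and Shank3-HM striatum, the contrasts that hold these 3. In the other contrasts with WT, the share was 2.68% (Shank3-HT cortex), 5.26% (Shank3-HT hippocampus) and 4.73% (Shank3-HM hippocampus). Homer1 in the striatum was 7819, 8590, 9008, 9068 and 8422 normalized counts in WT and 7961, 7174, 7379, 7594 and 7595 in Shank3-HM mice. Only the lowest WT sample lay within the Shank3-HM range, and the other 4 WT samples were above it. Homer1 was 12.1% lower (log2 fold change −0.19, 95% interval −0.35 to −0.03, exact permutation p = 0.0159, adjusted p = 0.604 over all genes). Over 18 alternative fits that adjusted p ran from 0.277 to 0.810, and the log2 fold change from −0.22 to −0.16. In Shank3-HT striatum the values were 9195, 8333, 7051, 9147 and 6854 (−0.09, adjusted p = 0.843). The 2 lowest were replicate 5, the sample with choroid plexus markers, and replicate 3, which had the highest sum of 5 oligodendrocyte markers in the striatum (317462, against 172554 to 290231). Without replicate 5 the estimate was −0.03 and without replicate 3 it was −0.04, and the part of these markers was not tested. In the hippocampus, by contrast, the Homer1 estimate for Shank3-HM mice was 0.10, and the striatum minus hippocampus difference of the 2 effects was −0.29 (−0.58 to 0.01, adjusted p = 0.941), which did not pass. Without WT replicate 1 of the hippocampus these values were 0.02 and −0.20.

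Homer2 in the cortex was 2892, 3009, 3149, 2931 and 3363 normalized counts in WT and 2493, 2269, 2434, 3465 and 2763 in Shank3-HM mice. In Shank3-HM cortex 4 samples lay below all WT samples and 1, replicate 4, above them. The log2 fold change was −0.21 (−0.39 to −0.02, adjusted p = 0.878), and −0.15 (adjusted p = 0.939) without replicate 2, the lowest of them. Without replicate 4 it was −0.30 (adjusted p = 0.453). In the striatum Homer2 was 549, 588, 537, 601 and 974 in WT and 619, 598, 524, 608 and 577 in Shank3-HM mice (−0.11, −0.39 to 0.16, adjusted p = 0.918), and the estimate turned to 0.04 without WT replicate 5. The 4 other WT samples lay between 537 and 601. In the hippocampus the log2 fold change was 0.12 in both mutants, and −0.02 in both without WT replicate 1, whose 1869 normalized counts lay below the 2784 to 3198 of the other WT samples.

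Homer3 in the striatum was 169, 177, 190, 192 and 186 normalized counts in WT and 175, 239, 249, 212 and 210 in Shank3-HT mice. The Shank3-HT samples were above the WT range with the exception of replicate 1. Homer3 was 17.9% higher (log2 fold change 0.24, 0.02 to 0.46, exact permutation p = 0.0397, adjusted p = 0.659), whereas in Shank3-HM striatum the values were 203, 200, 200, 168 and 165 (0.03, −0.19 to 0.25). In the hippocampus, where Homer3 is highest, Shank3-HM samples were at 1326, 1175, 1169, 1274 and 1190 against 1441, 1284, 1543, 1227 and 1272 in WT (−0.14, −0.28 to 0.00, adjusted p = 0.920). Leaving out 1 sample in turn gave −0.17 to −0.09, the latter without WT replicate 3. The ranges overlapped. In the cortex Homer3 was low in each genotype, at 111 to 183 normalized counts, and its intervals were the widest there (−0.32 to 0.31 in Shank3-HM mice).

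Over the 5 genes other than Shank3, 3 regions and 2 mutant genotypes, none of 30 contrasts with WT passed (smallest adjusted p = 0.604). The log2 fold changes lay between −0.21 and 0.24, and the 95% intervals reached from −0.41 to 0.46, which are changes of −24.9% and 37.2%. In none of the 30 did the 5 mutant samples lie all above or all below the 5 WT samples. Among all genes tested this held for 0.630% (cortex), 0.797% (hippocampus) and 0.971% (striatum) in Shank3-HT and for 0.800%, 0.736% and 1.86% in Shank3-HM mice. The exact permutation p was under 0.05 in 2 of 30.

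Averaged over the 3 regions, with the samples of different regions taken as independent, the intervals were narrower. In Shank3-HM mice the log2 fold change was −0.03 (95% interval −0.19 to 0.13) for Shank1, −0.03 (−0.12 to 0.06) for Shank2, −0.05 (−0.17 to 0.07) for Homer1, −0.07 (−0.21 to 0.07) for Homer2 and −0.04 (−0.17 to 0.09) for Homer3. The smallest adjusted p was 0.817, of Homer2, where 0.162% of all genes passed. In Shank3-HT mice the 5 estimates lay between −0.02 and 0.06, and 0.00599% of all genes passed, which is Shank3 alone. The upper bounds for the paralogs in Shank3-HM mice were 9.13% for Shank1 and 4.47% for Shank2. Under a replicate block that treats equal numbers within a genotype as 1 mouse, they were 10.4% and 4.80%, and without the 2 samples with markers of another region 13.7% and 6.59%. The signs of the Shank1 and Homer2 averages changed without the 2 samples with markers of another region, to 0.05 and 0.00. In the striatum that fit left out only a WT sample (replicate 5, cortical marker sum of 13624). Striatal Shank3-HM replicate 1 (13037) and Shank3-HT replicate 3 (11777) were kept, so these bounds and signs rest on an exclusion not matched between genotypes.

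**Figure D4:**
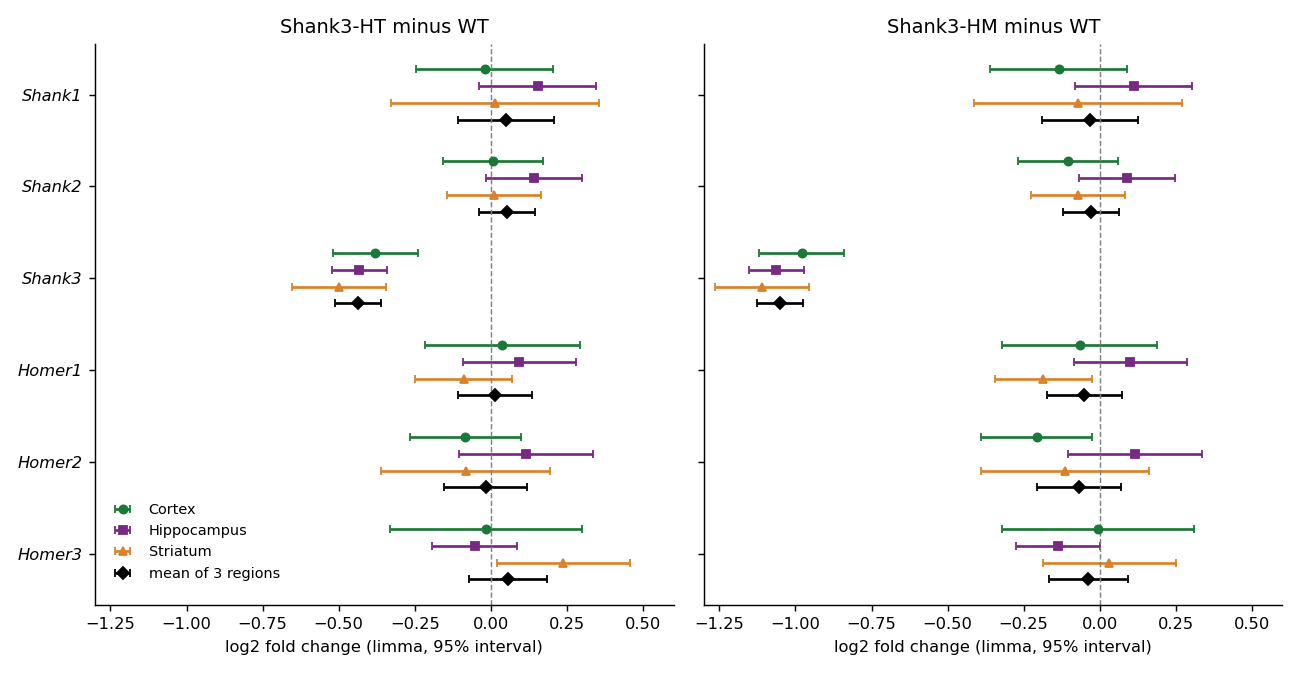
Log2 fold changes with 95% intervals (x axes, limma) of the 6 genes in Shank3-HT (left) and Shank3-HM mice (right) against WT, for each region and the mean of 3 regions. The Shank3 intervals lie wholly below 0 in both mutants, and the other 5 genes stay between −0.21 and 0.24 with intervals that mostly include 0.

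To compare Shank genes with each other, values were divided by the length of the longest annotated transcript (9826 nt for Shank1, 8988 nt for Shank2 and 7365 nt for Shank3). The values had a length correction upstream, and whether they still scale with length between genes was not tested, so the shares below depend on this division. Per kb, WT cortex held 2584 ± 301 normalized counts of Shank1, 1025 ± 122 of Shank2 and 1087 ± 98.4 of Shank3 (SD). Undivided, Shank2 (9212) was above Shank3 (8005) there. In WT striatum Shank3 was the highest, with 1672 ± 82.3, against 442 ± 50.8 of Shank2 and 400.0 ± 110 of Shank1 (353 ± 40.2 without replicate 5). Shank3 was thus 23.2% ± 1.81 of the summed Shank transcripts per kb in WT cortex, 31.8% ± 2.75 in WT hippocampus and 66.6% ± 4.77 in WT striatum (68.6% ± 1.94 without replicate 5).

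With the fall of Shank3, its share in Shank3-HM mice was 14.5% ± 2.71 (13.5% ± 1.78 without cortical replicate 2), 17.2% ± 1.21 and 49.4% ± 2.99. The summed Shank transcripts of Shank3-HM mice were 82.5% of the WT sum for cortex, 88.3% for hippocampus and 62.5% for striatum. Without cortical Shank3-HM replicate 2 and striatal WT replicate 5, the cortical and striatal values were 85.8% and 63.2%. In the striatum the sum was lowest in WT mice to begin with, at 2347 to 2622 per kb, and went to 1956 to 2140 in Shank3-HT and 1383 to 1674 in Shank3-HM mice, without overlap of the ranges. The mean of the sum changed by −943 per kb in the striatum, where that of Shank3 changed by −893. In the cortex the changes were −820 and −537, and in the hippocampus −397 and −563. In cortex and hippocampus, the sums of the genotypes overlapped (4173 to 5361 against 3273 to 4620 per kb in WT and Shank3-HM cortex, 2890 to 3664 against 2801 to 3297 in the hippocampus). With the mean length of protein-coding transcripts in place of the longest, the striatal share of Shank3 was 72.4% in WT and 56.2% in Shank3-HM mice. These sums are a description and were not tested.

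**Figure D5:**
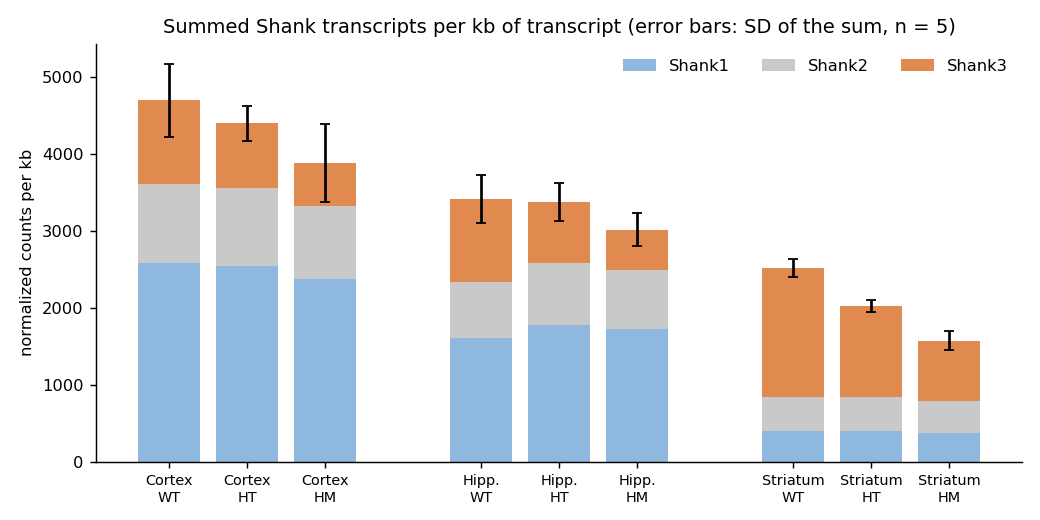
Stacked normalized counts per kb of Shank1, Shank2 and Shank3 (y axis, linear, from 0; means of 5 samples) in the 9 groups, with the SD of the sum as error bars. Shank3 makes up 66.6% of the bar in WT striatum and 23.2% in WT cortex, and the striatal bars step down to 62.5% of WT in Shank3-HM mice.

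Genes for proteins that bind Shank or Homer were examined from a list of 34, all of which were tested. Their number past the threshold was 0 of 34 by limma in each contrast between genotypes, with 0 to 3 at an unadjusted p under 0.05 within a region and 1 and 4 in the Shank3-HT and Shank3-HM means of 3 regions. Of all genes, 2.09% to 7.43% had such a p in the contrasts within a region, 7.38% in the Shank3-HT mean and 9.06% in the Shank3-HM mean. In Shank3-HM mice the median log2 fold change of the list was −0.01 (cortex), 0.03 (hippocampus) and −0.01 (striatum), beside 0.00 over all genes in each region. Between WT regions, 31 of 34 passed for cortex and striatum, where 59.3% of all genes passed.

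The partners with the smallest p values in each Shank3-HM contrast are given as values. In Shank3-HM striatum, Dbn1 (drebrin, an actin-binding spine protein that binds Homer) was at 7125 against 8152 normalized counts in WT (log2 fold change −0.20, 95% interval −0.33 to −0.06, adjusted p = 0.411). Dlg2, a PSD-95 relative, was at 21934 against 19047 (0.20, 0.06 to 0.35, adjusted p = 0.432), and Dlgap4, a SAPAP gene, at 5801 against 6197 (−0.09, adjusted p = 0.693). In Shank3-HM cortex, Baiap2 (IRSp53, an actin regulator bound by Shank) was at 8058 against 7093 (0.18, 0.05 to 0.32, adjusted p = 0.878), Adgrl1 was at −0.11 and Dlgap3 at −0.10 on the log2 scale. In Shank3-HM hippocampus, the dynamin gene Dnm3 was at 0.13 and the channel gene Trpc1 at 0.09 on the log2 scale, both with an adjusted p of 0.920. In Shank3-HT striatum, Dlgap2, a SAPAP gene, was at 2416 against 2783 (−0.21, −0.34 to −0.08, adjusted p = 0.605), and Dbn1 at 7382 against 8152 (−0.15, −0.28 to −0.01, adjusted p = 0.659), both chosen after their values were seen. None of these differences passed. Over the 3 regions, the smallest p values were those of Agap2 (−0.09, adjusted p = 0.325), Dlg4, which encodes PSD-95 (−0.06, adjusted p = 0.450), and Dlg2 (0.10, adjusted p = 0.497).

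The genes whose levels most resembled each member were described by Pearson's r of log2 values over the 45 samples. These samples share 3 regions, so r largely follows region. Shank1 was most like Gabbr2, Tmem151b and Frmpd3 (r of 0.99 each), Shank2 most like Cmtm4, Shank1 and Unc13b (0.98), and Homer2 most like Dlgap1, Cdk14 and Sobp (0.99). Homer1 was most like Spred1 (0.98), Egr3 (0.97) and Dlg1 (0.97), and Homer3 most like Prox1, a marker of dentate granule cells, Fgfr1 and Gm2115 (0.99). Shank3, which alone passed between genotypes, had lower values, with Cx3cr1, Trem2 and Slco2b1 at 0.68 to 0.69.

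After the mean of each of the 9 groups was subtracted, r describes how samples of one group deviated together. Shank1 deviated with Homer2 (0.72) and Shank2 (0.71), and Shank2 with Homer2 (0.57). Without region and genotype, Shank3 showed little likeness to its paralogs (−0.10 with Shank1 and 0.10 with Shank2), and its r with Homer1 was 0.34. Without the 2 samples with markers of another region, r was 0.58 (Shank1 and Homer2), 0.67 (Shank1 and Shank2) and 0.51 (Shank2 and Homer2), and for Shank3 it was 0.11 with Shank1, 0.25 with Shank2 and 0.45 with Homer1, so the sign of the r of Shank3 and Shank1 rests on these samples. Over all 45 samples, after the same subtraction, the genes most like each member were Kcnk9, Dlgap1 and Slc8a1 for Shank1 (0.78 to 0.82), Ttbk1, Tnr and Sh3rf3 for Shank2 (0.81 to 0.84) and Pxdn, Mink1 and C78859 for Shank3 (0.73 to 0.75). For Homer1 they were Spred1, Pdp1 and Egr3 (0.72 to 0.75), for Homer2 Frmpd3, Kif21b and Map3k9 (0.76 to 0.77), and for Homer3 Gm45702, Zfp710 and Stk32b (0.55 to 0.59).

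Homer1 is measured here as 1 gene, so its short, activity-induced form and its long forms are not separated. Beside 15 activity-regulated genes, Homer1 had an r between −0.26 (Btg2) and 0.41 (Nptx2) after group means were subtracted, with −0.02 for Fos, 0.34 for Egr1 and 0.17 for Arc. The median of the 15 was 0.07. Egr3, an activity-regulated gene outside this list, had an r of 0.72 with Homer1 after the same subtraction. Before it, over the 45 samples, the r of the 15 with Homer1 ran from −0.86 (Nr4a3) to 0.94 (Egr1), with a median of 0.67, and those values follow region.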

How the data were processed

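The data were normalized signal values per gene from bulk RNA sequencing of 45 brain samples (TruSeq Stranded mRNA kit). Per the methods, the authors quantified reads with Salmon, corrected for GC content, read the estimates into DESeq2 through tximport, and deposited the normalized signal values with decimals. The submitters' processing notes give Salmon 1.1.0, R 3.6.2, DESeq2 1.26.0 and GRCm38. Estimates of this kind already carry corrections for transcript length and library size. Whether the deposited values still scale with transcript length between genes was not tested. At most 35.7% of low values lay near whole multiples of a step (10.0% by chance), so whole reads were not recovered, count tests were not used and sequencing depth is unknown. The normalized totals of 26118607 to 29568983 are not depth.

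Gene IDs were matched to symbols for 18120 of 18135 genes, and gene models were from GENCODE for the same build. Values were taken as log2(value + 1), so that fold changes of low genes are understated. Genes with a mean of at least 10 were tested (16507 in cortex, 16571 in hippocampus, 16482 in striatum, 16708 over 9 groups). Each region had 1 limma fit of its 3 genotypes (version 3.58.1, R 4.3.3; lmFit, eBayes with an intensity trend). Region contrasts, differences of effects and means of 3 regions were taken from 1 fit of the 9 groups. Adjusted p values are Benjamini-Hochberg values over all genes tested, with a threshold of 0.05. Intervals are 95% intervals of limma. Exact permutation tests of single genes (scipy 1.17.1) were two-sided. The script was tested on simulated data. Samples of a group are 5 mice per the study's Results and captions. These give 5 mice for the regions of each genotype and do not say whether the regions share mice, so the 3 regions may come from the same mice. No source used here ties replicate numbers to mice, and the fits have no block. Not every pair of same-numbered samples deviated together (16 of 45 pairs over r = 0.1 between regions).

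The members, partners, activity genes and markers were chosen with earlier results of these data known. Named are the members, the 3 partners with the smallest p in each Shank3-HM contrast (none passed, and 1 is not reported here), and the 3 genes with the highest r to each member. Alternatives were no trend, quantile normalization, a pseudocount of 0.1, no filter or a mean of at least 100, only the groups compared, a replicate block and leaving out each sample. Fits, sums and correlations without 2 samples that hold markers of another region were added after seeing the data. The mutant striatal samples with the next highest cortical marker sums were kept in them. Protein sequences were not used here.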

Additional observations from a re-analysis of the deposited data

Results flagged for a closer look

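In 54 groups (6 genes in 9 groups of 5 samples), 4 samples stood apart from the other 4 of their group by Dixon's criterion (gap over range above 0.71), where about 2.7 would by chance. Shank1 in Shank3-HT cortex replicate 1 was at 22637 normalized counts against 25108 to 25818 in the others. Shank1 in WT hippocampus replicate 1 was at 12087 against 15957 to 17238. Shank3 in Shank3-HM striatum replicate 5 was at 4569 against 5883 to 6242. Homer2 in WT striatum replicate 5 was at 974 against 537 to 601, and this sample also had the highest summed cortical markers of the striatal samples (13624).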

How the results depend on the processing

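Shank3 in Shank3-HM mice kept its direction and its call in all 3 regions under all alternatives (log2 fold changes from −1.14 to −0.95). None of the other 5 genes and no partner passed in any genotype contrast under any alternative listed, so the changes of sign below are of estimates that did not pass. The call of Shank3 in Shank3-HT striatum depended on the settings, at −0.50 with an adjusted p of 0.177 without the trend, 0.0511 with a pseudocount of 0.1 (−0.50) and 0.0504 without a filter (−0.50), where 0 members passed. Leaving out 1 sample gave −0.53 to −0.47 and 0 to 1 members. The cause was not tested for this or the following changes. Under a geometric midpoint, Shank3-HT values lay 447 (cortex), 391 (hippocampus) and 334 (striatum) normalized counts above it.

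With quantile normalization, signs turned for Shank1 in Shank3-HT cortex (0.017), Homer2 between Shank3-HM and Shank3-HT hippocampus (0.0080), Shank3 between WT cortex and hippocampus (−0.12, adjusted p = 0.106), and the striatum minus cortex difference of the Shank3-HM effect for Shank1 (−0.011) and Shank2 (−0.0026). Without the 2 samples with markers of another region, signs turned for Homer1 in Shank3-HM cortex (0.0003), Homer3 between Shank3-HM and Shank3-HT cortex (−0.057), Homer2 in Shank3-HT (0.072) and Shank3-HM striatum (0.041), Shank1 in Shank3-HM striatum (0.076), and the means of 3 regions of Homer2 (0.035 in Shank3-HT, 0.0020 in Shank3-HM mice) and Shank1 (0.047 in Shank3-HM mice).

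Leaving out 1 sample in turn also changed signs. In Shank3-HT cortex the ranges were −0.068 to 0.034 (Shank1), −0.037 to 0.062 (Shank2), −0.043 to 0.11 (Homer1) and −0.099 to 0.069 (Homer3). In Shank3-HM cortex they were −0.15 to 0.0003 (Homer1) and −0.072 to 0.088 (Homer3), and against Shank3-HT −0.057 to 0.10 (Homer3). In the hippocampus Homer2 gave −0.019 to 0.17 in Shank3-HT and −0.020 to 0.17 in Shank3-HM mice, and between the mutants the ranges were −0.091 to 0.0052 (Shank1), −0.031 to 0.036 (Homer1) and −0.022 to 0.029 (Homer2). In Shank3-HT striatum they were −0.10 to 0.16 (Shank1), −0.029 to 0.062 (Shank2) and −0.14 to 0.072 (Homer2), in Shank3-HM striatum −0.17 to 0.076 (Shank1) and −0.17 to 0.041 (Homer2), and between the mutants −0.16 to 0.029 (Shank1) and −0.091 to 0.021 (Homer2). Shank3 between WT cortex and hippocampus gave −0.025 to 0.055. The striatum minus cortex difference of the Shank3-HM effect gave −0.033 to 0.21 (Shank1), −0.023 to 0.077 (Shank2) and −0.057 to 0.10 (Homer3), and striatum minus hippocampus −0.079 to 0.033 (Shank3). Means of 3 regions gave −0.013 to 0.040 (Homer1) and −0.062 to 0.035 (Homer2) in Shank3-HT and −0.064 to 0.017 (Shank1) in Shank3-HM mice.

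The 3 regions may come from the same mice, but the sources used here do not tie replicate numbers to mice. Their deviations correlated between regions by −0.10 to 0.225 (16 of 45 pairs over 0.1, median 0.067), against 5 of 180 pairs over 0.1 for different numbers (median −0.018), and in 54 of 90 comparisons a sample was most like its own number among the 5 of another region, a hint of shared mice that is not a pairing by design. With each genotype and number as 1 mouse (a replicate block), 10 genes in place of 27 passed in the Shank3-HM mean of 3 regions, and intervals there widened, to −0.21 to 0.14 for Shank1 and −0.22 to 0.08 for Homer2. Within a region the block was another one, the replicate number as a fixed term. It joins mice of different genotypes by number alone and is not a pairing of mice. With it, Shank3 in Shank3-HT striatum was −0.50 (adjusted p = 0.00342). No call of a member changed under either block. Sequencing depth is unknown, and so is the counting error of low genes such as Homer3 in the cortex.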
